A study of Oryza sativa with 9 samples.

Results

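The genes described here are rice genes for calcium sensors and for the kinases and binding proteins that work with them. They are the rows of the deposited expression table whose description holds the word calmodulin or the words EF hand and whose mean over the 9 libraries was at least 0.5 FPKM, a level that scales the fragments of a gene to its length and to the depth of the library. Of 38652 rows, 139 held these words, and 100 of them passed the level. All 100 were among the 22946 rows tested. The descriptions sort them into 5 calmodulins (OsCam), 18 calmodulin-like proteins (OsCML), 3 rows described as calmodulin-like protein 1, 16 other EF hand proteins, 20 calmodulin-binding proteins, 20 kinases of the class CAMK_KIN1/SNF1/Nim1_like and 18 other CAMK kinases. Of the rows tested, 13274 carry no description, so a related gene among them is not counted. Of the kinases, *LOC_Os11g02240* is identified in the study as *CIPK15*, and the sources used here link no other kinase row to a *CIPK* name.

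Leaves of IR64 were sequenced, an *indica* variety that does not tolerate submergence and lacks *Sub1A*. Each of 3 groups has 3 libraries. GAT seedlings were sprayed with 25 mL of gibberellin (GA) at 100 mg/L, and PBT seedlings with 25 mL of paclobutrazol, an inhibitor of GA synthesis, at 200 mg/L. Control seedlings received 25 mL of solvent, which is ethanol at 0.1% in the labels and methanol in the study's methods. The spray was given at 20 days and 2 days before submergence, and all 3 groups, the control included, were then kept for 4 days under 100 cm of water. No group stayed in air, so every comparison is between submerged plants. The labels number the libraries without naming the plants behind each one, so the p values measure the spread between these libraries.

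Calcium is a second messenger that rises in plant cells within moments of stresses such as oxygen shortage. Calmodulin and calmodulin-like proteins bind it through a helix-loop-helix fold called the EF hand and then change the activity of their partners. Calcium-dependent protein kinases carry their own EF hands, whereas CBL-interacting protein kinases (CIPK) are switched on by separate sensors, the calcineurin B-like (CBL) proteins. *CIPK15* is known in rice for linking oxygen shortage to the SnRK1A and MYBS1 sugar cascade, which switches on alpha-amylase under water. The description CAMK covers kinases related to calcium/calmodulin-dependent kinases and includes SNF1-related ones.

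The libraries were similar in summed FPKM, with sums between 432165 and 471800, of which the 100 genes held 0.494% to 0.716%. Summed FPKM do not show depth. GAT replicate 1 had the most rows at 0, with 17529, against 14322 to 15728 in the other libraries. Replicates of a group correlated at 0.867 to 0.894 over all rows tested (Pearson's r of log2(FPKM + 1)), and at 0.640 to 0.854 over the 100 genes. The separate file deposited for GAT replicate 1 holds the values that the table gives for PBT replicate 3. In the table, GAT replicate 1 correlated at 0.867 and 0.868 with the other GAT libraries, against 0.826 to 0.830 with PBT. PBT replicate 3 correlated at 0.885 and 0.894 with the other PBT libraries, against 0.826 to 0.845 with GAT. A list of 15 photosynthesis genes marked the tissue as leaf, with 11 of the 15 above 1 FPKM in all 9 libraries. Its summed level was 10933 to 12169 FPKM in GAT, 14974 to 17489 FPKM in PBT and 25585 to 26457 FPKM in the control, and none of the group ranges overlapped. Core histone genes, which mark dividing cells, summed to 516 to 650 FPKM in GAT, 563 to 593 FPKM in PBT and 673 to 736 FPKM in the control. Cyclin genes summed to 59.7 to 125 FPKM in GAT, 95.7 to 113 FPKM in PBT and 73.7 to 99.1 FPKM in the control. In such whole-leaf samples, fewer cells of a type and less RNA per cell cannot be told apart, and the part of these shifts in the results below was not tested.

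Of the calcium sensor genes that changed in GAT/Control, 5 of 6 were lower in GAT leaves, while 4 kinase genes were higher and 4 were lower. Over all 22946 rows tested, 1080 were higher and 853 lower. The sensors are the 5 calmodulins, 18 OsCML, 3 calmodulin-like protein 1 and 16 other EF hand genes, and the kinases are the classes of 20 and 18. The counts are small and were not tested, so they are not read as a contrast between sensors and kinases. A gene was taken as a DEG at an adjusted p under 0.05 and a difference of at least 1 in log2(FPKM + 1), with limma and Benjamini-Hochberg adjustment over all rows tested. In GAT/Control, 15 of the 100 genes were DEGs, which is 15%, against 8.42% of all rows tested (17, against 12.0% of all rows, without the limit on the difference). Of these, 6 were higher and 9 were lower in GAT, against 4.71% and 3.72% of all rows. In PBT/Control, 9 were DEGs, against 4.34% of all rows (12, against 6.37%, without that limit). Here 4 were higher and 5 lower in PBT, against 2.87% and 1.47% of all rows. This count fell to 5 without PBT replicate 3, to 5 without control replicate 1 and to 4 without control replicate 3, and the lower genes then numbered 2, 2 and 1. In PBT/GAT, 13 were DEGs, against 6.30% of all rows (15, against 9.37%, without that limit). Here 10 were higher and 3 lower in PBT, against 3.48% and 2.82% of all rows, and the lower genes numbered 5 without GAT replicate 1. In at least 1 comparison, 20 of the 100 genes were DEGs (20%), against 12.3% of all rows. Without GAT replicate 1, whose separate file holds another library, 13 were DEGs in GAT/Control and 15 in PBT/GAT, and without PBT replicate 3 the number in PBT/GAT was 11. The 3 comparisons share libraries, so they are not independent of each other.

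Across all 100 genes the median difference was -0.13 in GAT/Control, against 0.03 for all rows tested, and 0.16 in PBT/Control, against -0.04. In PBT/GAT it was 0.22, against -0.07 for all rows. The OsCML genes had a median of -0.28 in GAT/Control, of 0.43 in PBT/Control and of 0.87 in PBT/GAT. In GAT/Control the median was -0.38 for the other EF hand genes and -0.45 for the 3 rows described as calmodulin-like protein 1. Kinases of the KIN1/SNF1/Nim1_like class had a median of -0.44 in PBT/GAT, of -0.13 in PBT/Control and of 0.09 in GAT/Control, the last of which became -0.02 under median scaling. GAT had the lowest group mean for 46% of the genes, against 32.4% of all rows, and PBT had the highest for 41%, against 26.2% of all rows.

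**Figure D1:**
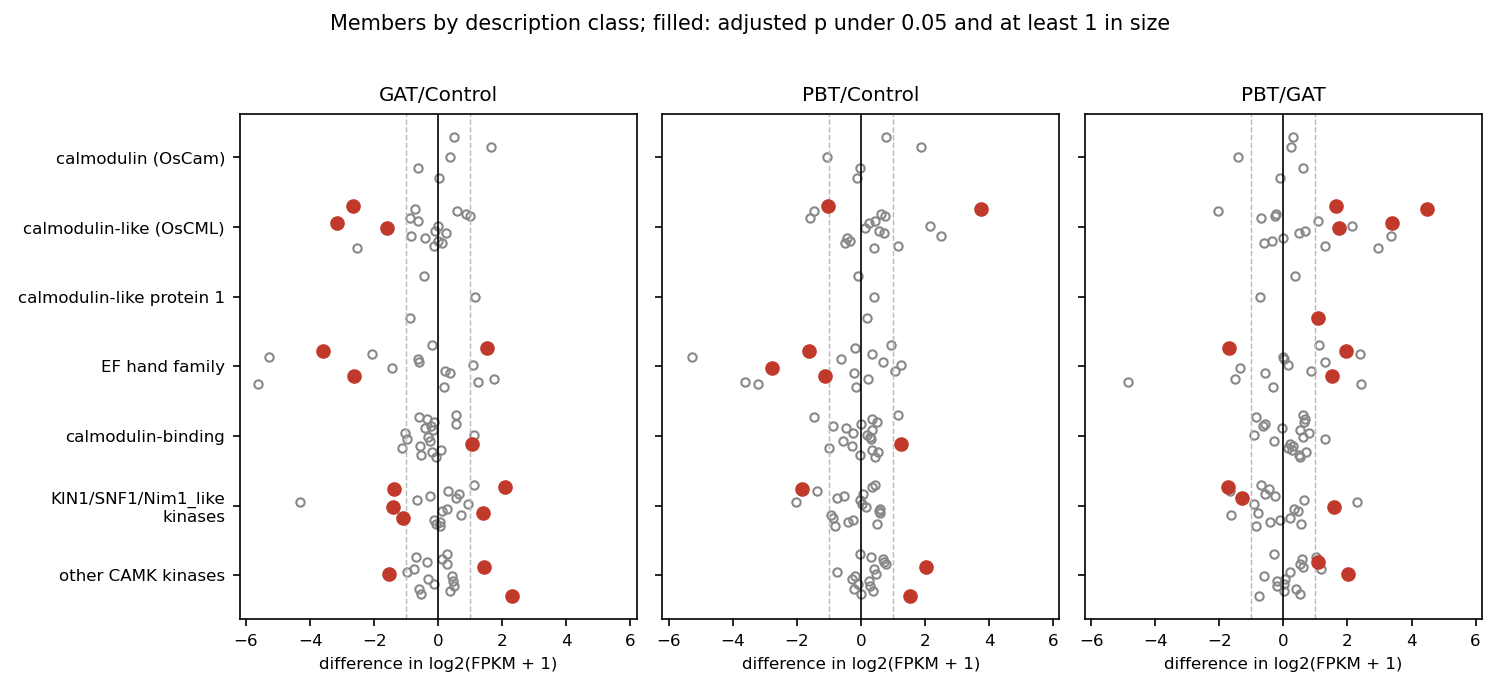
Difference in log2(FPKM + 1) for each of the 100 genes (points) by description class (rows), with a panel for each comparison. Filled points are the 15, 9 and 13 DEGs, and dashed lines mark a difference of 1 in either direction. All 3 OsCML genes that are DEGs in GAT/Control lie left of 0, and all 4 in PBT/GAT lie right of it, of 18 OsCML genes. Of all rows, 3.72% were lower in GAT/Control and 3.48% higher in PBT/GAT. The 4 are the same 3 genes and *OsCML21*, which passed the level limit almost wholly through PBT, and both comparisons share the GAT libraries.

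Among the OsCML genes, *OsCML10*, *OsCML24* and *OsCML31* were lower in GAT than in the control. *OsCML10* (*LOC_Os01g72100*, chromosome 1) had 14.4, 11.5 and 11.3 FPKM in GAT, 145, 140 and 134 FPKM in PBT, and 118, 117 and 116 FPKM in the control. All GAT libraries were far below all others, and the PBT libraries were slightly above those of the control. The difference was -3.15 ± 0.12 (SE) in GAT/Control, with an adjusted p of 4.1e-06, and 3.40 ± 0.12 in PBT/GAT, with an adjusted p of 3.5e-06. In PBT/Control it was 0.26 ± 0.12, with an adjusted p of 0.29. *OsCML24* (*LOC_Os07g48340*, chromosome 7) showed the same order at lower levels. It had 13.6, 16.7 and 20.9 FPKM in GAT, 65.4, 54.6 and 56.4 FPKM in PBT, and 52.8, 53.9 and 51.9 FPKM in the control. Its difference was -1.60 ± 0.17 in GAT/Control (adjusted p = 0.00046) and 1.74 ± 0.17 in PBT/GAT (adjusted p = 0.00044).

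*OsCML31* (*LOC_Os01g72530*), identified in the study as *MSR2*, a gene known for its part in stress resistance, was lower in both treated groups. Its values were 10.4, 16.9 and 18.4 FPKM in GAT, 49.3, 57.6 and 39.2 FPKM in PBT, and 111, 96.8 and 91.5 FPKM in the control. The 3 groups did not overlap, and PBT lay between GAT and the control. The difference was -2.67 ± 0.23 in GAT/Control (adjusted p = 0.00016) and -1.03 ± 0.23 in PBT/Control (adjusted p = 0.032). In PBT/GAT it was 1.63 ± 0.23 (adjusted p = 0.0031). The PBT/Control call was lost without any one of the 6 PBT and control libraries, with an adjusted p of up to 0.11 or a difference as small as -0.89.

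*OsCML21* (*LOC_Os05g24780*, chromosome 5) was found almost only in PBT. It had 22.5, 21.3 and 19.99 FPKM in PBT, against 3.57 FPKM in control replicate 3, and it was listed at 0 in control replicates 1 and 2 and in all GAT libraries. It was a DEG in PBT/Control (adjusted p = 0.0044) and in PBT/GAT (adjusted p = 0.0014). Its mean of 7.48 FPKM, by which it passed the level of 0.5 FPKM, came almost wholly from PBT. The p values are therefore a description of a gene that entered through the group where it was high. No fold is given against libraries listed at 0. *OsCML18* (*LOC_Os05g13580*) is a different case, since its mean of 9.73 FPKM rests on 87.5 FPKM in PBT replicate 1 with 0 listed in the other 8 libraries.

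A row described as calmodulin-like protein 1, *LOC_Os01g72080*, lies close to *OsCML10* by locus number and had a mean of 159 FPKM. It had 93.9, 101 and 94.8 FPKM in GAT, 196, 198 and 215 FPKM in PBT, and 175, 186 and 172 FPKM in the control. The order GAT, control, PBT was that of *OsCML10*, with smaller gaps. The difference was -0.87 ± 0.09 in GAT/Control (adjusted p = 0.00045), which is under the limit of 1, and 1.07 ± 0.09 in PBT/GAT (adjusted p = 0.00023). The other rows of this description, *LOC_Os11g04560* and *LOC_Os12g04360*, averaged 2.12 and 3.44 FPKM and were not DEGs.

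Of the remaining OsCML genes, *OsCML1* (*LOC_Os01g59530*) had a mean of 43.1 FPKM and differences between -0.35 and 0.01 in the 3 comparisons. *OsCML27* (*LOC_Os03g21380*) had 77.7, 81.5 and 65.6 FPKM in GAT, 120, 46.6 and 43.1 FPKM in PBT, and 17.4, 52.6 and 53.3 FPKM in the control. All 3 GAT libraries were above the control, but 1 library in each of PBT and the control stood apart, and its GAT/Control difference of 1.00 ± 0.49 had an adjusted p of 0.25.

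**Figure D2:**
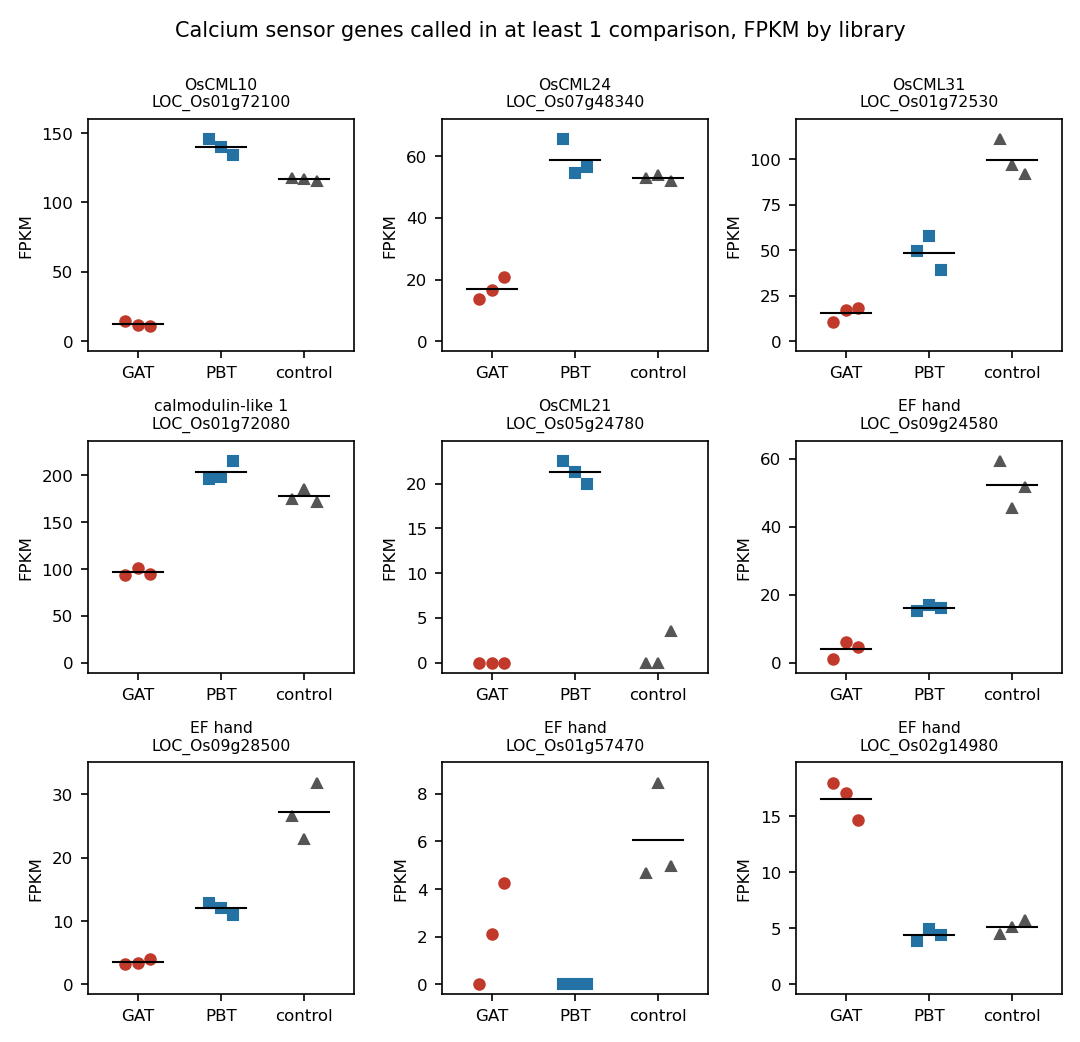
FPKM in each library for the 9 calcium sensor genes that were DEGs in at least 1 comparison. Points run from replicate 1 to 3 within GAT (circles), PBT (squares) and control (triangles), and the line is the group mean where no library is listed at 0. *OsCML10* lies at 11.3 to 14.4 FPKM in GAT, below every PBT and control library, and *OsCML21* reaches 19.99 to 22.5 FPKM in PBT.

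Of the 16 other EF hand genes, 2 were lower and 1 was higher in GAT than in the control, against 3.72% and 4.71% of all rows. In PBT 3 were lower than in the control, against 1.47% of all rows. The 16 genes encode proteins with the calcium-binding fold but no more specific description. *LOC_Os09g24580* (chromosome 9) had 1.11, 6.07 and 4.77 FPKM in GAT, 15.3, 17.0 and 16.2 FPKM in PBT, and 59.3, 45.6 and 51.7 FPKM in the control. The groups did not overlap, in the order GAT, PBT, control. Against the control the difference was -3.58 ± 0.40 for GAT (adjusted p = 0.00063) and -1.63 ± 0.40 for PBT (adjusted p = 0.048), and it was 1.95 ± 0.40 in PBT/GAT (adjusted p = 0.018). The PBT/Control call was lost in 7 of the 9 fits with 1 library left out, with an adjusted p of up to 0.14, and held without GAT replicate 1 and without GAT replicate 2. The PBT/GAT call was lost without each PBT library in turn, with an adjusted p of 0.056, 0.063 and 0.062 for replicates 1, 2 and 3, and it was 0.076 when only the 6 libraries of these groups were fitted.

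*LOC_Os09g28500* (chromosome 9) had the same order with closer replicates. It had 3.20, 3.35 and 4.00 FPKM in GAT, 12.9, 12.1 and 11.0 FPKM in PBT, and 26.6, 23.0 and 31.9 FPKM in the control. Against the control the difference was -2.63 ± 0.17 for GAT (adjusted p = 4.5e-05) and -1.11 ± 0.17 for PBT (adjusted p = 0.0072), and it was 1.53 ± 0.17 in PBT/GAT (adjusted p = 0.0011). Without control replicate 3 the PBT/Control difference was -0.99, under the limit of 1. Its neighbour in locus number, *LOC_Os09g28510*, was listed at 0 in all 6 GAT and PBT libraries and had 246 and 234 FPKM in control replicates 1 and 3, with 0 listed in control replicate 2. It was no DEG, with an adjusted p of 0.11 in GAT/Control and 0.15 in PBT/Control. With the listed 0 of control replicate 2 left out it was called lower in both treated groups. The adjusted p was then 9.3e-07 in GAT/Control and 4.0e-06 in PBT/Control, and the control rested on 2 libraries. That fit left out a 0 only beside high replicates, so the listed 0 of all 6 GAT and PBT libraries stayed in, without spread. The gene also passed the level limit through the control alone. These p values are therefore a description and do not decide whether the gene was lower in the treated groups.

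*LOC_Os02g14980* (chromosome 2), described as a calcium-binding EF hand protein, was the EF hand gene that rose in GAT. It had 18.0, 17.0 and 14.7 FPKM in GAT, 3.87, 4.92 and 4.45 FPKM in PBT, and 4.53, 5.14 and 5.73 FPKM in the control. Only the GAT libraries were high, and PBT and control overlapped. The difference was 1.52 ± 0.17 in GAT/Control (adjusted p = 0.00072) and -1.70 ± 0.17 in PBT/GAT (adjusted p = 0.00063). *LOC_Os01g57470* (chromosome 1) was listed at 0 in all PBT libraries, against 4.68, 8.47 and 4.98 FPKM in the control, with an adjusted p of 0.020 in PBT/Control. In GAT it had 2.13 and 4.23 FPKM in replicates 2 and 3 and was listed at 0 in replicate 1. The PBT/Control call was lost without any one of the 6 PBT and control libraries, with an adjusted p of up to 0.081.

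The kinase *CIPK15* was higher in both treated groups, while its counterpart on chromosome 12 was higher in GAT and lower in PBT than in the control. *CIPK15* (*LOC_Os11g02240*, chromosome 11) had 141, 142 and 132 FPKM in GAT, 87.5, 77.3 and 74.4 FPKM in PBT, and 54.1, 49.1 and 51.7 FPKM in the control. The groups did not overlap, in the order GAT, PBT, control. The difference was 1.41 ± 0.11 in GAT/Control (adjusted p = 8.4e-05). It was 0.61 ± 0.11 in PBT/Control (adjusted p = 0.012) and -0.79 ± 0.11 in PBT/GAT (adjusted p = 0.0027), both under the limit of 1, so *CIPK15* was a DEG in GAT/Control alone. Fitted without the variance trend, the PBT/Control difference had an adjusted p of 0.064. *CIPK15* is the only one of the 100 genes for which the study designed a primer pair for quantitative RT-PCR. Whether the pair also matches *LOC_Os12g02200* was not tested. Each primer is 20 bases long:
forward: gcgtggaaagcttacagagg
reverse: ctgaaagcgcactcaatcca

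*LOC_Os12g02200* (KIN1/SNF1/Nim1_like.6) had 68.7, 61.1 and 56.9 FPKM in GAT, 23.8, 22.0 and 28.2 FPKM in PBT, and 38.9, 43.1 and 43.1 FPKM in the control. All GAT libraries were above the control and all PBT libraries below it. The difference was 0.56 ± 0.14 in GAT/Control (adjusted p = 0.034) and -0.74 ± 0.14 in PBT/Control (adjusted p = 0.017). With single libraries left out these adjusted p values reached 0.078 (without control replicate 1) and 0.058 (without PBT replicate 2). The direct comparison of the treated groups, PBT/GAT, gave -1.30 ± 0.14 (adjusted p = 0.00083). The ratio of *CIPK15* to *LOC_Os12g02200* was 2.24 ± 0.16 in GAT, 3.27 ± 0.56 in PBT and 1.24 ± 0.13 in the control (SD, n = 3 each). Their summed level was 200.7 ± 10.4 FPKM in GAT, 104.4 ± 6.16 FPKM in PBT and 93.3 ± 1.41 FPKM in the control (SD, n = 3 each). The tips of rice chromosomes 11 and 12 carry a recent duplication with very similar gene copies. How reads that match both copies were assigned is not given in the sources used here, so the split of the level between these copies is uncertain.

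**Figure D3:**
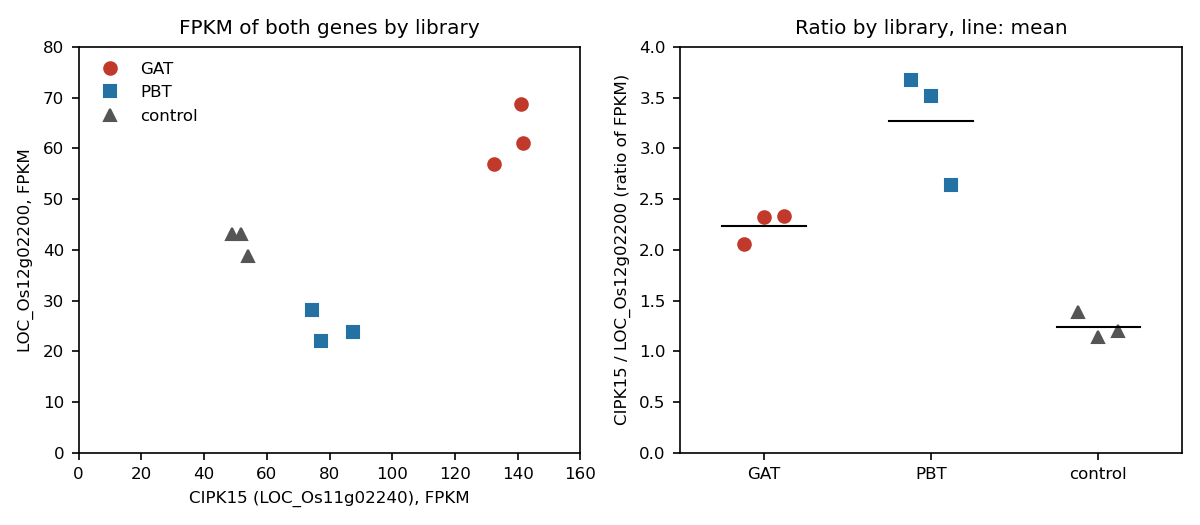
Left, FPKM of *LOC_Os12g02200* (y axis) against FPKM of *CIPK15* (x axis), 1 point per library. Right, the ratio of *CIPK15* to *LOC_Os12g02200* in each library with the group mean as a line. The groups form separate clusters, and every PBT library has a ratio of at least 2.63, against 2.06 to 2.33 in GAT and 1.14 to 1.39 in the control.

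*OsAmy3D* (*LOC_Os08g36910*), the alpha-amylase gene at the end of the sugar cascade in which *CIPK15* is known to act, is not a calcium gene and was looked at for that link. It had 22.6, 26.7 and 24.3 FPKM in GAT, 9.56, 8.79 and 13.0 FPKM in PBT, and 1.20, 0.990 and 0.867 FPKM in the control. The order of the groups was the same as for *CIPK15*, with a difference of 3.66 ± 0.19 in GAT/Control (adjusted p = 1.3e-05) and 2.49 ± 0.19 in PBT/Control (adjusted p = 0.00022). In PBT/GAT it was -1.17 ± 0.19 (adjusted p = 0.0065). Over the 9 libraries, the rows whose log2(FPKM + 1) followed that of *CIPK15* most closely were *LOC_Os01g35050*, *LOC_Os04g45900*, *LOC_Os03g20720* (GTPase-activating protein), *LOC_Os09g37760* (bromodomain protein) and *LOC_Os07g34640* (pyruvate Pi dikinase regulatory protein), with Pearson's r between 0.990 and 0.997. As a description of how common such likeness was, 446 rows (1.94% of those tested) had an r above 0.9 with *CIPK15*, and the 9 points share the same 3 groups.

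Of the 20 KIN1/SNF1/Nim1_like kinases, 2 were higher and 3 lower in GAT than in the control, against 4.71% and 3.72% of all rows. In PBT 1 was lower than in the control, against 1.47% of all rows. The class holds SNF1-related kinases, the family to which the CIPK kinases belong. *LOC_Os07g48100* (KIN1/SNF1/Nim1_like.31, chromosome 7) was the most abundant of the class, with 226, 236 and 226 FPKM in GAT, 70.7, 63.2 and 70.3 FPKM in PBT, and 44.0, 59.7 and 56.1 FPKM in the control. The GAT libraries were all above the others, by 2.10 ± 0.13 in GAT/Control (adjusted p = 3.5e-05), and the difference in PBT/GAT was -1.74 ± 0.13 (adjusted p = 0.00012). In PBT/Control it was 0.36 ± 0.13 (adjusted p = 0.17). Its neighbour *LOC_Os07g48090* (KIN1/SNF1/Nim1_like.30) was listed at 0 in 6 libraries, all 3 of GAT among them, and had 114 FPKM in PBT replicate 2, against 92.2 and 83.3 FPKM in control replicates 1 and 2.

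The kinases of this class that fell in GAT were expressed at low levels. *LOC_Os03g22050* (KIN1/SNF1/Nim1_like.16) had 0.386, 1.01 and 0.619 FPKM in GAT, 3.79, 3.81 and 4.38 FPKM in PBT, and 2.28, 5.58 and 3.01 FPKM in the control. The difference was -1.42 ± 0.29 in GAT/Control (adjusted p = 0.016, and 0.054 without GAT replicate 1) and 1.59 ± 0.29 in PBT/GAT (adjusted p = 0.012). *LOC_Os05g26820* (KIN1/SNF1/Nim1_like.20) was lower in both treated groups. It had 2.14, 0.991 and 1.80 FPKM in GAT, 0.795, 0.727 and 1.27 FPKM in PBT, and 5.32, 5.81 and 6.24 FPKM in the control. The difference was -1.38 ± 0.24 in GAT/Control (adjusted p = 0.0074) and -1.82 ± 0.24 in PBT/Control (adjusted p = 0.0033), and each held with any 1 library left out. *LOC_Os06g35160* (KIN1/SNF1/Nim1_like.26) had 2.01, 2.76 and 4.84 FPKM in GAT, against 6.57, 8.83 and 7.53 FPKM in the control, and its GAT/Control difference of -1.09 ± 0.28 had an adjusted p of 0.039. That call held in the fit without GAT replicate 3 and was lost without each other library, with an adjusted p of up to 0.12 or a difference as small as -0.88. *LOC_Os03g03510* (KIN1/SNF1/Nim1_like.15), with a mean of 81.9 FPKM, had 106, 94.4 and 101 FPKM in PBT, against 61.0, 57.9 and 80.5 FPKM in the control, a difference of 0.60 ± 0.14 (adjusted p = 0.042) that is under the limit of 1.

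Of the 18 other CAMK kinases, 2 were higher and 1 lower in GAT than in the control, against 4.71% and 3.72% of all rows. In PBT 2 were higher than in the control, against 2.87% of all rows. *LOC_Os02g34600* (CAMK_CAMK_like.13, chromosome 2), which the deposited annotation assigns to abscisic acid signalling, had 66.3, 76.0 and 76.6 FPKM in GAT, 40.3, 45.6 and 42.7 FPKM in PBT, and 14.01, 14.1 and 13.9 FPKM in the control. Its groups were far apart for the spread within them, in the same order as for *CIPK15*. Against the control the difference was 2.30 ± 0.12 for GAT (adjusted p = 1.4e-05) and 1.55 ± 0.12 for PBT (adjusted p = 0.00023), and it was -0.75 ± 0.12 in PBT/GAT (adjusted p = 0.0060). Of the 5 genes with that annotation, the other 4 were not DEGs in any comparison.

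*LOC_Os07g38120* (CAMK_CAMK_like.34, chromosome 7) was the most abundant of these kinases and was lowest in GAT. It had 34.5, 42.6 and 16.6 FPKM in GAT, 127, 120 and 117 FPKM in PBT, and 82.7, 91.5 and 85.3 FPKM in the control. The difference was -1.54 ± 0.29 in GAT/Control (adjusted p = 0.010) and 2.02 ± 0.29 in PBT/GAT (adjusted p = 0.0035). In PBT/Control it was 0.48 ± 0.29 (adjusted p = 0.43), although no PBT library overlapped the control. The GAT/Control adjusted p was 0.051 when only the 6 libraries of these groups were fitted. *LOC_Os08g42750* (CAMK_CAMK_like.37) was higher in both treated groups at low levels. It had 6.72, 4.85 and 1.47 FPKM in GAT, 7.48, 6.54 and 5.25 FPKM in PBT, and 0.9001, 0.639 and 0.824 FPKM in the control. The difference was 1.43 ± 0.39 in GAT/Control (adjusted p = 0.049) and 2.05 ± 0.39 in PBT/Control (adjusted p = 0.017). The GAT/Control call held in the fit without GAT replicate 3 and was lost without each other library (adjusted p of up to 0.14), and the PBT/Control call was lost without any one of the 6 PBT and control libraries (adjusted p of up to 0.071). *LOC_Os03g57450* (CAMK_CAMK_like.2) had 14.6, 8.36 and 19.98 FPKM in PBT, against 5.89, 5.51 and 6.30 FPKM in GAT, and its PBT/GAT difference of 1.07 ± 0.28 had an adjusted p of 0.0496. That call held in the fit without PBT replicate 2 and was lost without each other library, with an adjusted p of up to 0.13 or a difference as small as 0.81. *LOC_Os05g50810* (CAMK_CAMK_like.5), with a mean of 41.5 FPKM, was no DEG, and its PBT/Control difference was 0.79 ± 0.20 (adjusted p = 0.060).

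**Figure D4:**
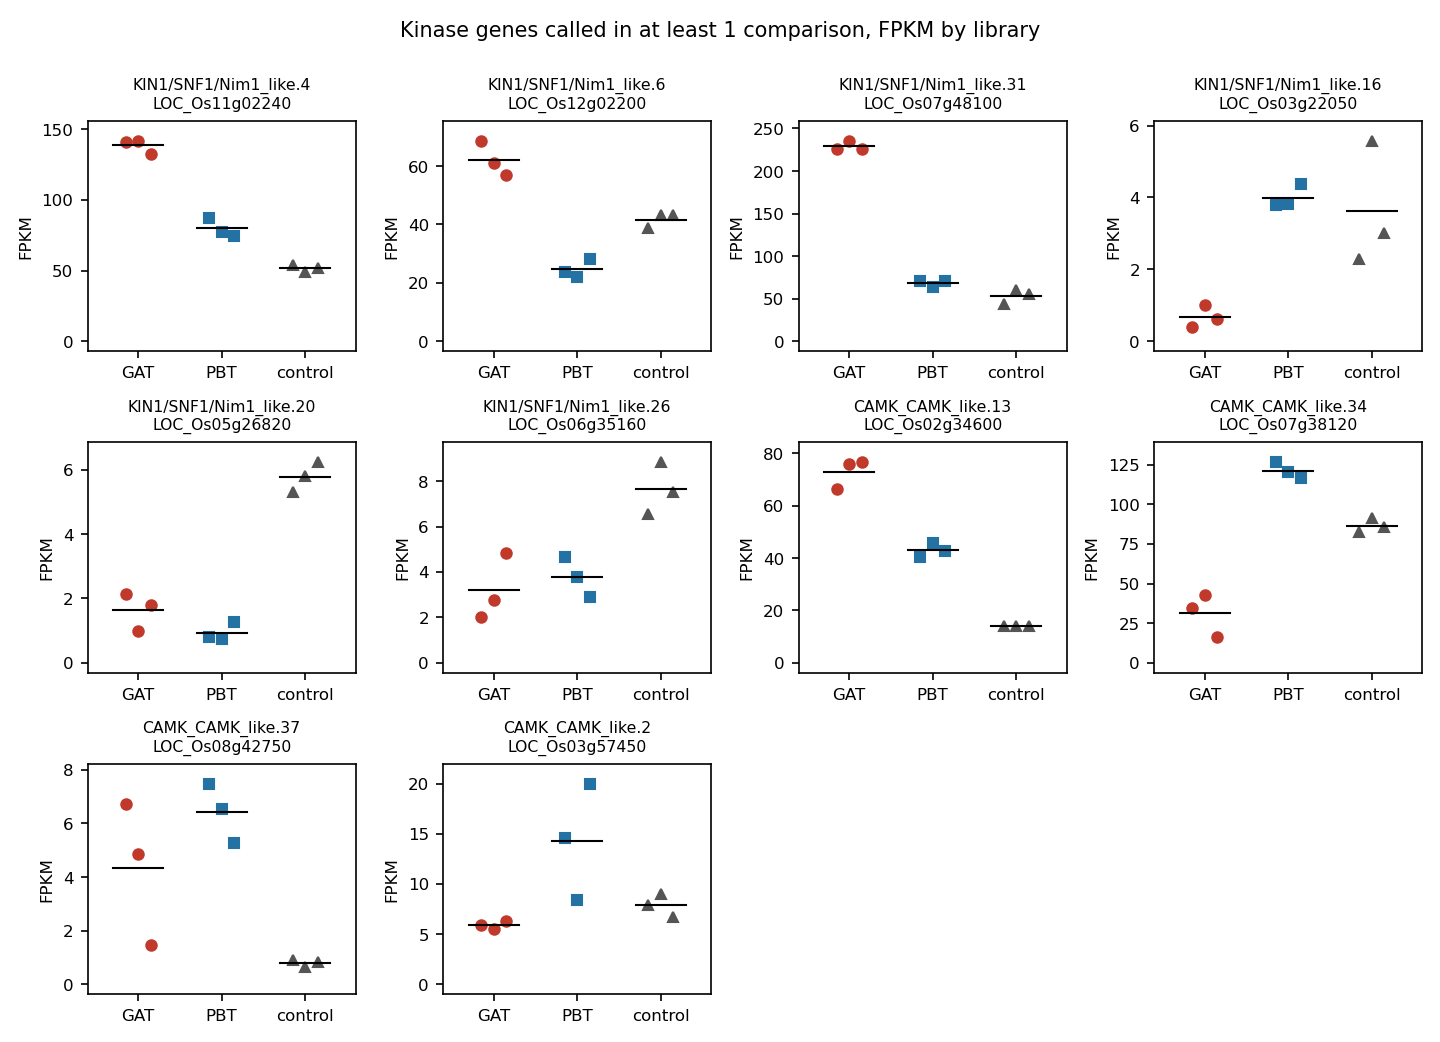
FPKM in each library for the 10 kinase genes that were DEGs in at least 1 comparison. Points run from replicate 1 to 3 within GAT (circles), PBT (squares) and control (triangles), and lines are group means. *LOC_Os07g48100* lies at 226 to 236 FPKM in GAT, above 44.0 to 70.7 FPKM in the other libraries, and *LOC_Os05g26820* is at most 2.14 FPKM in GAT and PBT.

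Of the 20 calmodulin-binding proteins, which take up the signal from the sensors, 1 was a DEG in at least 1 comparison, against 12.3% of all rows. It was higher in both treated groups. *LOC_Os12g36940* (chromosome 12) had 6.65, 7.26 and 9.52 FPKM in GAT, 8.01, 9.08 and 10.4 FPKM in PBT, and 2.64, 3.03 and 4.07 FPKM in the control. Both treated groups were above the control and overlapped each other. The difference was 1.05 ± 0.21 in GAT/Control (adjusted p = 0.014) and 1.27 ± 0.21 in PBT/Control (adjusted p = 0.0094). In GAT/Control it was 0.92 without GAT replicate 3, 0.95 without control replicate 1 and 0.93 under median scaling, all under the limit of 1. The 3 most abundant of the class were *LOC_Os02g08120*, *LOC_Os06g06160* and *LOC_Os01g61720*, with means of 34.9, 30.5 and 16.7 FPKM, and none was a DEG. Of these, *LOC_Os01g61720*, which has an IQ motif, had 15.9, 18.0 and 16.0 FPKM in GAT, 11.4, 13.2 and 15.8 FPKM in PBT, and 19.2, 19.8 and 21.0 FPKM in the control. All treated libraries were below the control, with a PBT/Control difference of -0.55 ± 0.16 (adjusted p = 0.088).

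The 5 calmodulins were abundant, with means of 67.2 to 156 FPKM, and limma called none of them in any comparison. At an unadjusted limma p under 0.05 the count was 1 of the 5 in PBT/GAT and 0 in GAT/Control and in PBT/Control. The share over all rows at that limit is not given here, and 5 genes are too few to read these counts as a trait of calmodulins. *OsCam1-3* (*LOC_Os01g16240*) was even across all 9 libraries, with 71.3, 64.6 and 71.4 FPKM in GAT, 58.7, 67.7 and 64.6 FPKM in PBT, and 60.6, 70.4 and 75.5 FPKM in the control. Its largest difference was 0.12 in size, with an SE of 0.12. The other 4 each had single libraries far below their replicates, so their differences carried SEs of 0.61 to 1.17. *OsCam2* (*LOC_Os05g41210*) had 146, 182 and 20.1 FPKM in GAT, 34.0, 232 and 246 FPKM in PBT, and 263, 256 and 29.9 FPKM in the control. *OsCam1-1* (*LOC_Os03g20370*) had 186, 154 and 39.3 FPKM in GAT, 46.4, 221 and 210 FPKM in PBT, and 24.3, 134 and 123 FPKM in the control. In both genes 1 library of each group stood far below the other 2, and it was not the same replicate in every group. *OsCam1-2* (*LOC_Os07g48780*) had 124, 147 and 140 FPKM in GAT, 165, 155 and 161 FPKM in PBT, and 99.2, 6.73 and 108 FPKM in the control. *OsCam3* (*LOC_Os01g17190*) had 132, 141 and 127 FPKM in GAT, 92.6, 13.8 and 91.7 FPKM in PBT, and 107, 93.7 and 111 FPKM in the control.

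Such isolated low values were more frequent among these genes than in the table as a whole. Of the 48 genes with a mean of at least 10 FPKM, 17 (35.4%) had a library more than 4 times below each of the others of its group where these exceeded 10 FPKM, against 10.1% of the 7709 rows at that level. An exact 0 of this kind was listed for 11 of the 48 (22.9%), against 4.05% of those rows. The 23 values were spread over all 9 libraries, with 1 to 5 in each, so they do not belong to a single library. A value of 0 in such a file can be a failed estimate, and their cause was not tested. With these values left out of the fit, an alternative chosen after the data were seen, 20 genes were DEGs in GAT/Control, against 9.67% of all rows fitted in the same way. In PBT/GAT 17 were DEGs, against 7.38% of all rows, and in PBT/Control 11, against 5.05%. The genes lower in GAT/Control then numbered 14, against 4.35% of all rows. With only the values of 0 left out where both other libraries of the group exceeded 1 FPKM, the count in GAT/Control was 20, against 11.5% of all rows. In PBT/GAT it was 20, against 8.73%, and in PBT/Control 12, against 6.48%. Both rules take out values that differ from their replicates, which lowers the spread, while a group at 0 throughout keeps its values. The first rule met these genes more often than all rows, so the higher counts are not read as a result about them.

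Of the genes that changed in this way, *LOC_Os06g46950*, the most abundant of all 100 with a mean of 208 FPKM, had 23.8 and 22.2 FPKM in GAT and 293 and 297 FPKM in PBT with 0 listed in replicate 3 of each, and 396, 405 and 436 FPKM in the control. Fitted with all values it was no DEG (adjusted p = 0.14 in GAT/Control), and with both values of 0 left out the difference was -4.11 ± 0.10 in GAT/Control (adjusted p = 1.6e-06) and 3.62 ± 0.11 in PBT/GAT (adjusted p = 4.8e-06). *OsCML15* (*LOC_Os05g31620*) had 62.1 and 76.8 FPKM in GAT replicates 2 and 3, 175, 183 and 161 FPKM in PBT, and 168 and 171 FPKM in control replicates 2 and 3, with 0 listed in replicate 1 of GAT and of the control. With those 2 values left out it was -1.29 ± 0.14 in GAT/Control (adjusted p = 0.0011) and 1.31 ± 0.13 in PBT/GAT (adjusted p = 0.00096). *OsCML30* (*LOC_Os06g07560*) had 10.1, 6.86 and 6.46 FPKM in GAT, 24.2, 21.6 and 15.4 FPKM in PBT, and 29.6, 0 and 27.1 FPKM in the control. Without the listed 0 its differences were -1.76 ± 0.25 in GAT/Control (adjusted p = 0.0024) and 1.28 ± 0.23 in PBT/GAT (adjusted p = 0.0088). *OsCML22* (*LOC_Os04g41540*) had 9.48, 16.5 and 16.4 FPKM in GAT, 29.8, 28.6 and 0 FPKM in PBT, and 12.1, 13.9 and 11.6 FPKM in the control. Fitted with all values its differences were -0.48 in PBT/Control (adjusted p = 0.88) and -0.60 in PBT/GAT (adjusted p = 0.81). Without the listed 0 they changed sign, to 1.16 ± 0.25 in PBT/Control (adjusted p = 0.028) and 1.04 ± 0.25 in PBT/GAT (adjusted p = 0.034). These results rest on 2 libraries in each group that lost a value. The values left out were the ones that differed from their replicates, so these p values are a description and do not decide whether the genes changed.

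The same kind of value left other genes unresolved. *OsCML16* (*LOC_Os01g04330*) had 56.6 FPKM in GAT replicate 1 and 0 listed in the other GAT libraries, 177 and 150 FPKM in PBT replicates 2 and 3, and 106 and 102 FPKM in control replicates 1 and 2. *LOC_Os09g30490* had 148, 159 and 166 FPKM in GAT, 166 FPKM in PBT replicate 1 with 0 listed in the other PBT libraries, and 65.6, 62.2 and 72.5 FPKM in the control. All GAT libraries were above the control for this EF hand gene. *LOC_Os03g29770* had 56.3, 59.8 and 0 FPKM in GAT, 76.9, 93.0 and 68.8 FPKM in PBT, and 67.1, 63.8 and 55.3 FPKM in the control. *OsCML7* (*LOC_Os08g02420*), *LOC_Os07g42730* and *LOC_Os03g43440* each had 1 listed 0 among 8 values of 40.7 to 73.4 FPKM, 21.9 to 46.2 FPKM and 18.4 to 28.8 FPKM in that order.

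**Figure D5:**
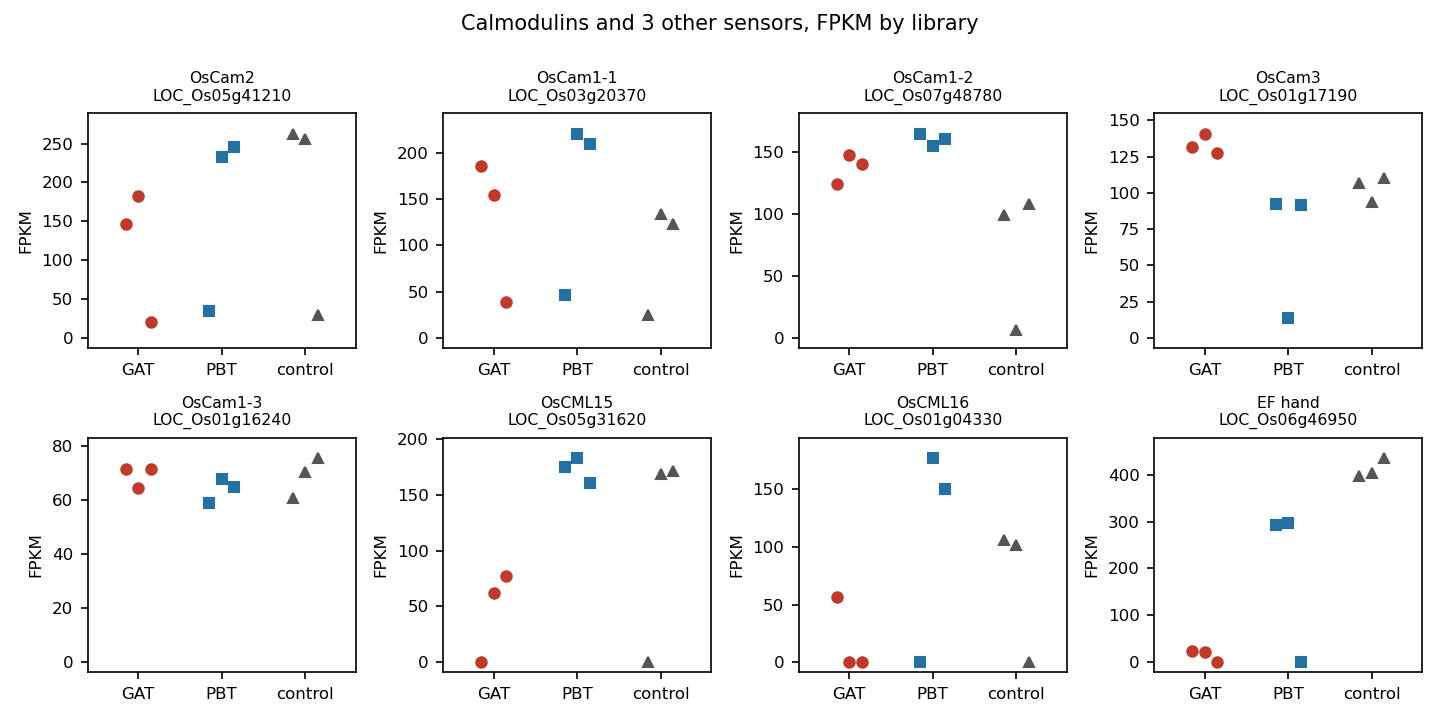
FPKM in each library for the 5 calmodulins, *OsCML15*, *OsCML16* and the EF hand gene *LOC_Os06g46950*. Points run from replicate 1 to 3 within GAT (circles), PBT (squares) and control (triangles), with no mean drawn. Single libraries lie near 0 beside high replicates, as for *OsCam1-2* with 6.73 FPKM in control replicate 2 beside 99.2 and 108 FPKM, while *OsCam1-3* stays between 58.7 and 75.5 FPKM.

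Genes for channels, pumps, exchangers and other calcium proteins outside the 100 were taken from the descriptions as a list of 55 rows, 43 of them tested. In GAT/Control 3 of the 43 were higher and 2 lower, against 4.71% and 3.72% of all rows tested. In PBT/Control 4 were higher and 1 lower, against 2.87% and 1.47%. In PBT/GAT 2 were higher and 0 lower, against 3.48% and 2.82%. These counts are small and were not tested against the shares. The median difference of the 43 from the control was 0.20 for GAT and 0.03 for PBT, and it was -0.20 in PBT/GAT. Glutamate receptor genes, which encode ligand-gated cation channels, made up 2 of the 3 higher in GAT/Control and 2 of the 4 higher in PBT/Control. *LOC_Os02g54640* had 13.8, 17.8 and 15.1 FPKM in GAT, 19.8, 20.7 and 17.0 FPKM in PBT, and 5.05, 5.61 and 5.74 FPKM in the control. *LOC_Os09g26160* had 5.78, 6.41 and 4.61 FPKM in GAT, 13.9, 13.0 and 12.6 FPKM in PBT, and 2.13, 3.57 and 3.04 FPKM in the control. *LOC_Os07g01310* had 21.5, 19.3 and 23.9 FPKM in GAT, 13.3, 6.35 and 7.12 FPKM in PBT, and 10.1, 8.49 and 3.63 FPKM in the control. It was a DEG in GAT/Control alone (1.52 ± 0.36, adjusted p = 0.030), and its PBT/GAT difference was -1.25 ± 0.36 (adjusted p = 0.071). *LOC_Os02g54640* was a DEG in both treated groups and *LOC_Os09g26160* in PBT/Control and in PBT/GAT. A respiratory burst oxidase gene, *LOC_Os12g35610*, of the enzymes that produce superoxide and bind calcium, was lower in both treated groups. It had 2.44, 3.03 and 4.73 FPKM in GAT, 2.26, 1.65 and 2.24 FPKM in PBT, and 15.3, 15.9 and 16.9 FPKM in the control, with a difference from the control of -1.98 ± 0.23 for GAT (adjusted p = 0.00071) and of -2.49 ± 0.23 for PBT (adjusted p = 0.00051). Another, *LOC_Os11g33120*, had 62.6, 63.4 and 63.8 FPKM in PBT, against 26.2, 28.6 and 26.1 FPKM in the control, a difference of 1.20 ± 0.11 (adjusted p = 0.00048).

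The cyclic nucleotide-gated channel *LOC_Os06g10580* had 34.2, 31.1 and 32.0 FPKM in GAT, 21.3, 16.0 and 21.6 FPKM in PBT, and 7.88, 14.2 and 14.8 FPKM in the control, and its GAT/Control difference was 1.38 ± 0.24 (adjusted p = 0.0067). The sodium/calcium exchanger *LOC_Os05g51610* was listed at 0 in GAT replicate 1 and had 0.174 and 0.184 FPKM in the other GAT libraries, against 2.69, 3.41 and 2.21 FPKM in the control, and it was a DEG in GAT/Control (adjusted p = 0.0015). Rows described as calcineurin B, the name of the sensors that switch on CIPK kinases, numbered 4, and the 2 tested, *LOC_Os05g45810* and *LOC_Os12g06510*, were not DEGs by limma. Their differences in PBT/Control were 0.66 ± 0.40 (adjusted p = 0.43) and -0.87 ± 0.23 (adjusted p = 0.067), and at an unadjusted p under 0.05 *LOC_Os12g06510* passed in PBT/GAT as well as in PBT/Control.

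The level that chose the genes left 39 rows out, of which 4 were at 0 in all 9 libraries. The genes just above it were *LOC_Os05g44630*, *LOC_Os11g44700* and *LOC_Os07g29794*, with means of 0.539, 0.680 and 0.703 FPKM, and the rows just below it were *LOC_Os07g48760*, *LOC_Os12g41090* and *LOC_Os07g12240*, with means of 0.470, 0.418 and 0.347 FPKM. The 100 genes lie on all 12 chromosomes by their locus names, with 16 each on chromosomes 1 and 3 and 3 on chromosome 10. A further 20 rows of the table carry the same locus name as 19 of the genes. Apart from those beside *LOC_Os05g45930* and *LOC_Os10g39420*, these further rows had means of at most 10% of the gene's mean.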

How the data were processed

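Poly(A) RNA from leaves was sequenced in 9 libraries. After trimming by adaptor and quality, the authors used Tophat on the rice pseudomolecules and Cufflinks to obtain FPKM, deposited per gene and library without pooling. The submitters' notes name Bowtie 0.12.2, IRGSP-1.0 and mm8, which is not a rice build. Separate files repeat single columns of the series table, in 4 of 9 cases the column of another library and in 1 of these that of another treatment (the file of GAT replicate 1 holds PBT replicate 3), so only the table was used, with groups from its column names. Fragment counts per gene were not used here, so no counting interval is given and precision rests on the spread of 3 libraries.

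log2(FPKM + 1) was fitted for the 22946 rows with a mean of at least 0.5 FPKM with limma 3.58.1 in R 4.3.3, as 3 group means over all 9 libraries with a variance trend. Differences are on that scale, which understates changes of low genes. p was adjusted per comparison over all rows. Genes named are the DEGs, the 3 most abundant of each class, *CIPK15*, *MSR2* and *LOC_Os12g02200*, those nearest the level limit, those with an isolated 0 and the 5 rows most like *CIPK15*. *OsCML1*, *OsCML18*, *OsCML27*, *OsCam3*, *OsCam1-3*, *LOC_Os05g45930*, *LOC_Os10g39420*, *OsAmy3D* and the further genes outside the 100 were named after their values were seen. The genes, lists and tests were chosen with earlier results of these data known. Alternatives changed the pseudocount, filter, scaling, libraries, treatment of 0, variance trend, rows with the same locus name and limits of a DEG.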

Additional observations from a re-analysis of the deposited data

How the results depend on the processing

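The number of DEGs among the 100 genes stayed within 1.5 times its value in GAT/Control (15) under every alternative run, between 10 and 22. In PBT/Control (9) it was 5 at an adjusted p under 0.01, and it ranged from 4 to 11 with 1 library left out, against 12 to 15 in GAT/Control and 11 to 15 in PBT/GAT. In PBT/GAT (13) it was 20 with values of 0 treated as missing, where fewer values enter the fit. The 41 differences followed through up to 21 alternatives were those of the DEGs and, in each comparison, of *CIPK15*, *LOC_Os12g02200* and *MSR2*. Of these, 0 changed sign, which is nearly given for DEGs, and 29 stayed on the same side of the DEG limits throughout. *OsCML22*, outside that set, changed sign in PBT/Control and in PBT/GAT with its listed 0 left out. With the replicate number as a block the count was 13 in GAT/Control, 12 in PBT/GAT and 7 in PBT/Control, where the lower genes numbered 3. Libraries with the same number did not deviate together, with correlations of -0.037 to 0.012 over the 9 pairs, so the numbers are taken to name libraries and not to pair them. FPKM do not give the fragments behind a value, so low genes such as *LOC_Os03g22050* carry an unknown counting error.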
